A study of Mus musculus with 13 samples.

Results

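Endothelial identity and angiogenic signalling were followed through 42 genes, out of 47643 listed in the count table, in neurovasculature isolated from mouse brain after lipopolysaccharide (LPS) challenge. The 42 genes were taken by symbol from a list defined by known function. The rule uses no measured value, but the list was drawn up with earlier results of these data known. They fall into 5 groups by role. There are 13 pan-endothelial genes of the cell surface, the junctions and the secretome, 10 ligands, receptors and tip cell genes of the VEGF, angiopoietin and apelin systems, 7 transcription factors of the ETS, SOX and forkhead families, 4 effectors or targets of Wnt/beta-catenin signalling, and 8 Notch, arterial and ephrin genes. All 42 passed the filter on low counts and were among the 17285 genes tested.

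RNA-seq counts were available for 13 male mice of the outbred strain CD1, aged 8 to 10 weeks, in 3 groups. The 4 sham-vehicle mice received no LPS, and the design text names PBS as the counterpart of LPS. The 5 LPS-vehicle mice and the 4 LPS-CPD-4645 mice were challenged at 0, 6 and 24 h with 3 mg/kg of LPS from Salmonella enterica typhimurium, injected into the peritoneum. CPD-4645, a covalent inhibitor of monoacylglycerol lipase (MAGL), the main enzyme that breaks down the endocannabinoid 2-arachidonoylglycerol, was injected under the skin at 10 mg/kg. At this dose the study also reports partial inhibition in brain of ABHD6, which breaks down the same endocannabinoid, and of FAAH. Per the labels CPD-4645 followed each LPS dose by 30 min, whereas the study's text also gives a longer delay, so the interval is uncertain. The vehicle was a mixture of DMSO, Cremophor and saline. Mice were killed at 28 h, 4 h after the last LPS dose. No group received CPD-4645 without LPS, so effects of the compound alone cannot be told apart from effects on the LPS response. Each library is 1 mouse.

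Endothelial cells line the vessels and are held together by junction proteins such as VE-cadherin. VEGF acts on them through receptor tyrosine kinases and drives sprouting, angiopoietin 1 keeps vessels quiet through the receptor Tie2, and angiopoietin 2 is a context-dependent antagonist of that receptor which is released from activated endothelium. Wnt/beta-catenin signalling sets up the blood-brain barrier in brain endothelium, and Notch signalling with the SOXF factors sets arterial identity.

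Total counts ran from 7813559 to 55133373 per library with a median of 26989885, and the shallowest were LPS-vehicle 3 and LPS-CPD-4645 1. A pair of libraries stood apart in the genes studied here. Sham-vehicle mouse 4 was the lowest of its group for 31 of the 42 genes and for all 13 pan-endothelial genes, and LPS-vehicle mouse 3 was the lowest of its group for 31 of the 42 and for 10 of the 13. In each group the mouse with the lowest summed pan-endothelial level (sham-vehicle 4, LPS-vehicle 3, LPS-CPD-4645 4) also had the highest summed level of neuron markers, at 9969, 7979 and 9914 CPM (counts scaled to library size). The counts of genes that passed are therefore also given without sham-vehicle mouse 4 and LPS-vehicle mouse 3. Mitochondrial counts made up 6.47% to 12.71% of the sham-vehicle, 4.84% to 7.05% of the LPS-vehicle and 3.97% to 8.17% of the LPS-CPD-4645 libraries, with sham-vehicle mouse 4 the highest of all, and the part of this in the results was not tested. The tissue label was checked against markers per transcript length. In sham-vehicle mice the endothelial genes *Cldn5* and *Pecam1* stood at 75.9 ± 14.7 and 4.71 ± 0.955 RPKM (reads per kilobase of exon, scaled to depth; mean ± SD, n = 4). The neuronal gene *Snap25* was at 508 ± 52.3 RPKM, above both endothelial genes, in libraries labelled neurovasculature. In such mixed samples, fewer cells of a type and less RNA per cell cannot be told apart.

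Sequence upstream of the start site is shown for 6 genes on which the results below turn. These are *Tek*, *Apln* and *Gkn3*, which were lower in both LPS groups than in sham-vehicle mice, *Notch4*, which was higher in LPS-vehicle mice, and *Bmx* and *Tie1*, which differed between the LPS groups by at least 2-fold. Each window is the 250 bases before the RefSeq start on GRCm38.p6, 5′ to 3′ on the gene's strand, and capitals mark matches to short motifs of factors among or upstream of the 42 genes.
*Tek*, chr4:94739039-94739288, plus strand: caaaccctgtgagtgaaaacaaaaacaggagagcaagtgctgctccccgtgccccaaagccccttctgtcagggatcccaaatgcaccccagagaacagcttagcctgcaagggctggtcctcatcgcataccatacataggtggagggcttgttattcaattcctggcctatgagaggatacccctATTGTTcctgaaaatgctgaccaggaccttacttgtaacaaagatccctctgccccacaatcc
*Tie1*, chr4:118489850-118490099, minus strand: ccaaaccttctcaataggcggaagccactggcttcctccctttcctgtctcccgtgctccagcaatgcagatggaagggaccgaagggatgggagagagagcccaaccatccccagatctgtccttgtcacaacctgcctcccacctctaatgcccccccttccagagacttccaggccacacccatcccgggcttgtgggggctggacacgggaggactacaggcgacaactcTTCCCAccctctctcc
*Apln*, chrX:48034854-48035103, minus strand: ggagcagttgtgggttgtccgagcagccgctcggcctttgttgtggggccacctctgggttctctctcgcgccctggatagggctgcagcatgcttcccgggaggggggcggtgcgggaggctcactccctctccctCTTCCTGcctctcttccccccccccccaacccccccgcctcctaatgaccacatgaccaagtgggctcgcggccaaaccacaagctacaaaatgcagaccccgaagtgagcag
*Gkn3*, chr6:87388936-87389185, minus strand: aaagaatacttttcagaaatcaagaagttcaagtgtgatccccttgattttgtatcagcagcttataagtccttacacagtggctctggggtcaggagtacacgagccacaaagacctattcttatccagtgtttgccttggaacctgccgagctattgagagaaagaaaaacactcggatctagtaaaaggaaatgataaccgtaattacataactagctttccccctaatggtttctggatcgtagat
*Notch4*, chr17:34564045-34564294, plus strand: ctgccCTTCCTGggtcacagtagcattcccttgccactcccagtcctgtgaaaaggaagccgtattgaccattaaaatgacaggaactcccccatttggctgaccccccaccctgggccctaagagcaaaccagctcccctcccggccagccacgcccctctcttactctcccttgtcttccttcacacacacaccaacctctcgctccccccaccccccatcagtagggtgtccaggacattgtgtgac
*Bmx*, chrX:164258194-164258443, minus strand: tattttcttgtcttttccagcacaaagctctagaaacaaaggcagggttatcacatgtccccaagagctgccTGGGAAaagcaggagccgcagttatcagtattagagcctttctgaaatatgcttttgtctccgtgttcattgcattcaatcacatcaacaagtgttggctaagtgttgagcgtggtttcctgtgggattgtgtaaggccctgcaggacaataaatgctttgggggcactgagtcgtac

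The motifs searched on both strands were CCGGAAG and CAGGAAG for ETS factors, ATTGTT for SOX factors, CTTTGA for TCF/LEF, TGGGAA for RBPJ, the NF-kB consensus and TTCNNNGAA for STAT factors. Of the 42 genes, 26 had an entry, with 35 windows. The capitals in *Tek* are the SOX letters ATTGTT starting at position -63 from the start site. In *Apln* and *Notch4* they are CTTCCTG, the reverse complement of CAGGAAG, starting at -113 and -245. *Bmx* has the RBPJ letters TGGGAA at -178 and *Tie1* their reverse complement TTCCCA at -16, while none of the motifs was found in the *Gkn3* window. Over the 35 windows, CAGGAAG was found in 25.7%, against 10.8% of the 32851 windows of all genes. ATTGTT was found in 11.4% against 9.42%, CTTTGA in 11.4% against 13.8%, and TGGGAA in 7 of the 35 against 21.6%. CCGGAAG, the NF-kB motif and the STAT motif, found in 6.91%, 0.356% and 7.02% of all windows, were in 0 of the 35. A match is a description of letters and not a bound site.

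LPS challenge was followed by opposite changes within the endothelial gene set. Of the 13 pan-endothelial genes 8 were higher, among them *Ly6a* and *Cdh5*, and 5 did not pass, and *Angpt2* showed the largest rise. The receptor of angiopoietins *Tek*, the apelin pair *Apln* and *Aplnr*, the SOXF factor *Sox17* and the arterial gene *Gkn3* were lower. Between LPS-vehicle and sham-vehicle mice, 11 of the 42 genes were higher and 8 lower at an edgeR adjusted p of at most 0.05, and 23 did not pass. This is 45.2% of the genes, and 19.9% of all genes tested passed, 11.1% higher and 8.86% lower. With a change of at least 2-fold besides, 7 were higher and 5 lower, against 5.68% of all genes in either direction (4.68% higher, 0.995% lower). No overlap between groups was seen for 20 genes, 8 above and 12 below, against 18.1% of all genes (9.68% above, 8.44% below). The median log2 fold change of the 42 was 0.09, and that of all genes tested was -0.00. Without LPS-vehicle mouse 3, 22 genes passed (14 higher, 8 lower) and 25 did not overlap, without sham-vehicle mouse 4, 18 passed (10 higher, 8 lower) and 20 did not overlap, and without both 21 passed (13 higher, 8 lower) and 25 did not overlap. Here and below, the share of all genes is not given with mice left out. Groups of fewer mice separate more easily for any gene, so such counts are not a result about the set. The map of levels in the 13 mice shows both directions in every LPS-treated mouse for *Ly6a*, *Angpt2*, *Apln* and *Gkn3*.

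**Figure D1:**
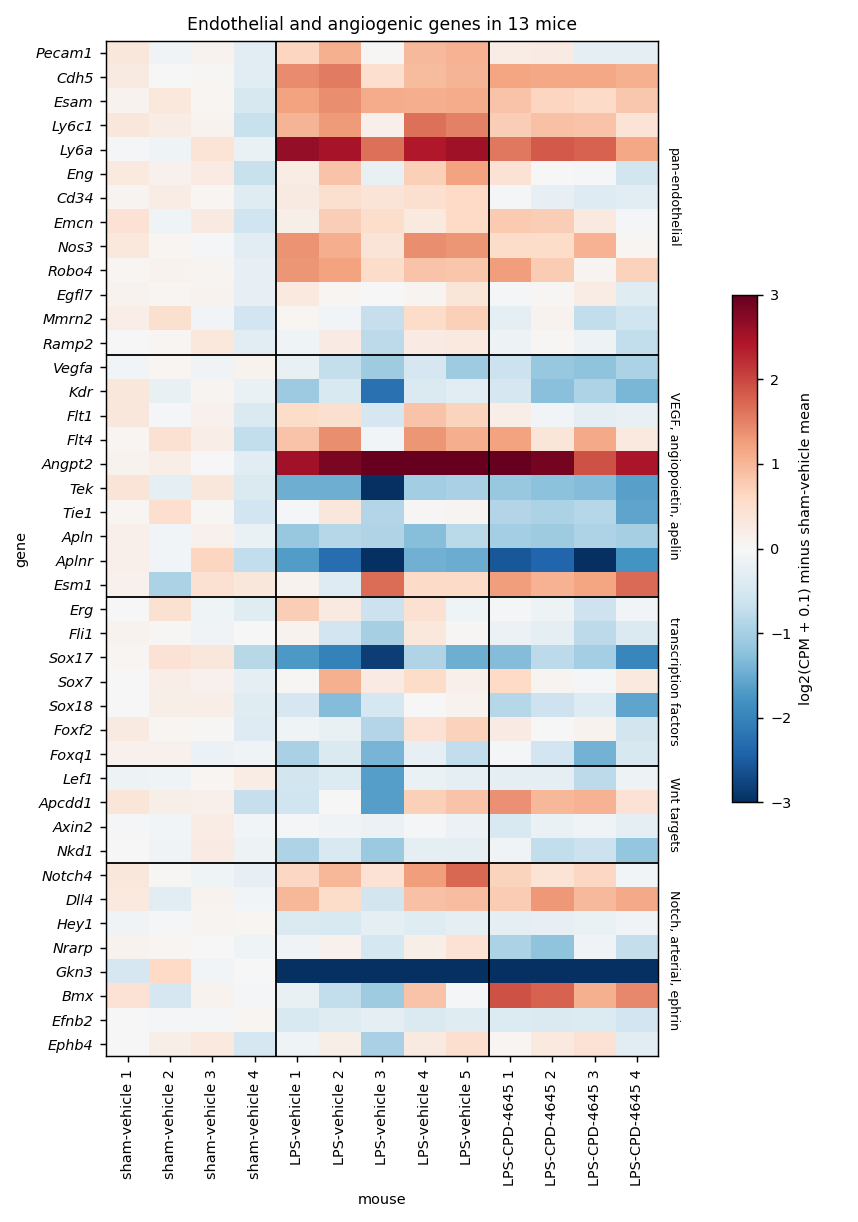
Level of each of the 42 genes in each of the 13 mice, as log2(CPM + 0.1) minus the mean of the 4 sham-vehicle mice (red higher, blue lower, colours ending at 3 in either direction), with genes grouped by role. *Angpt2* and *Ly6a* are red and *Gkn3*, *Tek* and *Aplnr* blue in all 9 LPS-treated mice, and *Bmx* is red in all 4 LPS-CPD-4645 mice.

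With CPD-4645 the 42 genes passed the test no more often than genes at large, and the pan-endothelial calls depended on the scaling. Under TMM, *Pecam1*, *Esam*, *Ly6a*, *Eng*, *Cd34* and *Nos3* fell, as did the receptors *Flt1* and *Tie1* and the Notch genes *Notch4* and *Nrarp*, and *Bmx* rose. Of the 42 genes, 1 was higher and 10 lower in LPS-CPD-4645 than in LPS-vehicle mice, and 31 did not pass. This is 26.2%, below the 30.5% of all genes that passed (14.1% higher, 16.4% lower), so the calls are not a result about the set. With libraries scaled to the summed counts or the geometric mean of other endothelial genes, 0 of the 13 pan-endothelial genes passed. Below 0 lay 8 and 11 of the 13, with median log2 fold changes of -0.09 and -0.34, against -0.48 under TMM. Fewer of all genes passed on these scales too, 4543 and 1098 against 5271 under TMM. With a 2-fold change 2 of 42 passed, *Bmx* upward and *Tie1* downward, against 5.9% of all genes (1.7% higher, 4.19% lower). No overlap was seen for 3 genes (*Bmx* above, *Cd34* and *Esam* below), against 23% of all genes (11.1% above, 12% below), and the median log2 fold change was -0.25 against -0.02 for all genes. LPS-vehicle mouse 3 weighed on this comparison. Without it 13 genes passed and 11 did not overlap, and without both libraries that stood apart 13 passed (1 higher, 12 lower) and 12 did not overlap. Whether genes at large shifted as much was not tested. The count of lower genes was 6 without LPS-vehicle mouse 4 or 5 or without LPS-CPD-4645 mouse 2 or 4.

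The genes that differed between LPS-CPD-4645 and sham-vehicle mice were again of both directions, 11 higher and 13 lower, with 18 that did not pass. That is 57.1% of the 42 against 38.8% of all genes tested (19.5% higher, 19.3% lower). With a 2-fold change 6 were higher and 7 lower, against 11.1% of all genes (6.11% higher, 4.98% lower), and 20 did not overlap (9 above, 11 below), against 37.5% (18.7% above, 18.8% below). The median log2 fold change was -0.16, and that of all genes -0.01. The count of higher genes was 7 without sham-vehicle mouse 3 or 4 or without LPS-CPD-4645 mouse 1 or 3. Without sham-vehicle mouse 4 and LPS-vehicle mouse 3, 23 passed (10 higher, 13 lower) and 23 did not overlap. The 3 comparisons share groups pairwise, so their calls are not independent of one another. Over the 3 comparisons, 12 of the 42 genes passed in none: *Axin2*, *Egfl7*, *Emcn*, *Ephb4*, *Erg*, *Fli1*, *Foxf2*, *Foxq1*, *Lef1*, *Mmrn2*, *Ramp2* and *Sox7*.

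**Figure D2:**
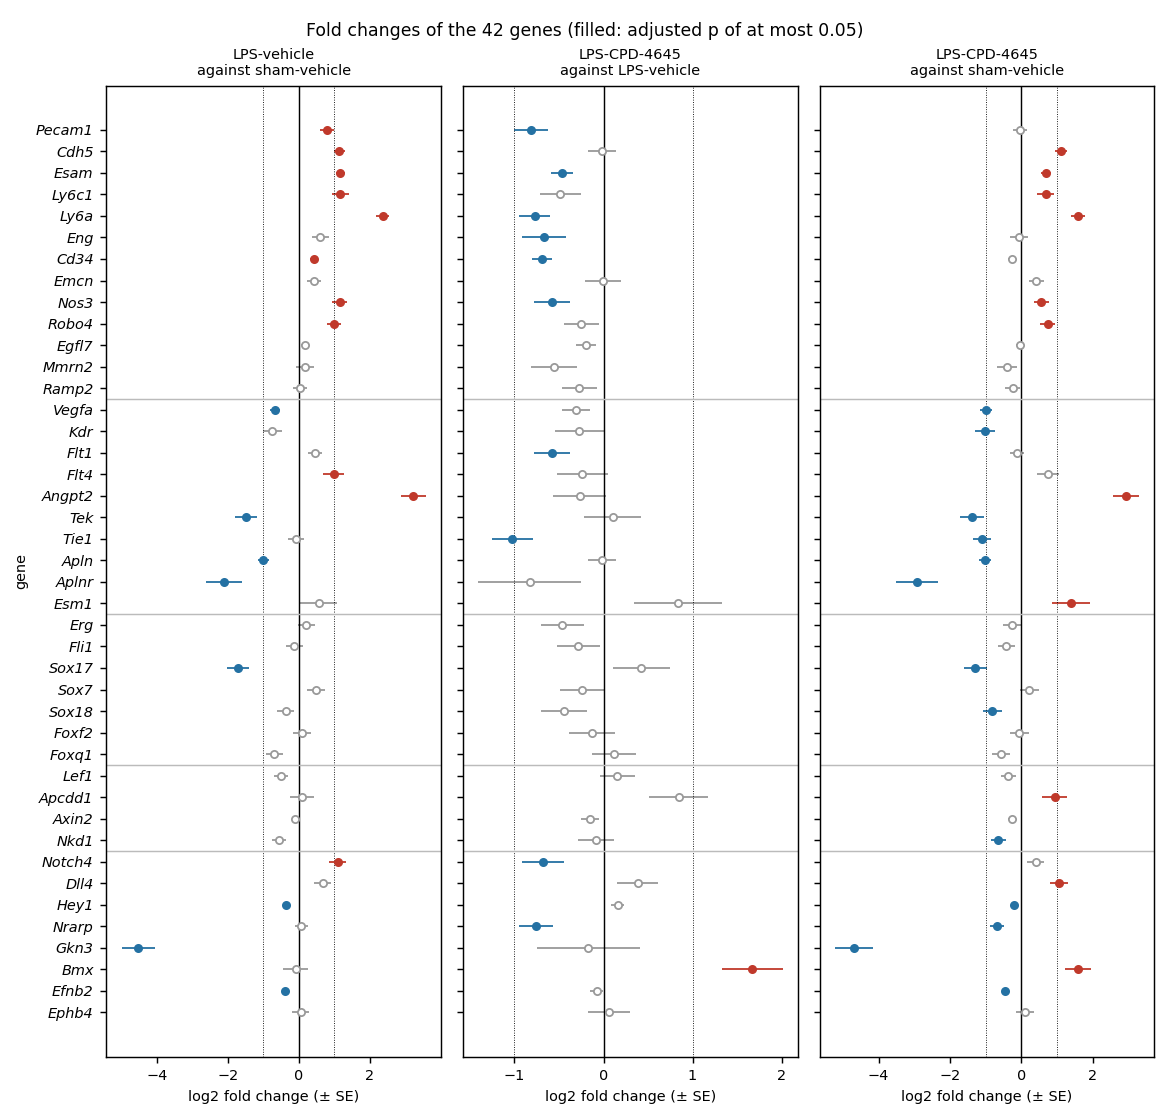
Log2 fold change of each of the 42 genes with its SE in the 3 comparisons (TMM scaling; filled points have an edgeR adjusted p of at most 0.05, red higher and blue lower; dotted lines mark a 2-fold change). All 13 pan-endothelial genes lie above 0 in LPS-vehicle against sham-vehicle and below 0 in LPS-CPD-4645 against LPS-vehicle, which share the LPS-vehicle mice.

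Among the 13 pan-endothelial genes, 8 rose after LPS and 0 fell under TMM scaling, where 11.1% of all genes were higher and 8.86% lower. All 13 fold changes were above 0, as were 49.9% of those of all genes, with a median log2 fold change of 0.79. Scaled to the summed counts or the geometric mean of other endothelial genes, 6 or 5 of the 13 passed and 10 lay above 0. *Ly6a* (Sca-1, ENSMUSG00000075602, chr15:74994877-74998031, minus strand), a surface protein of brain endothelium and of haematopoietic cells that interferons induce, stood at 37.5, 35.7, 52.1 and 34.3 CPM in sham-vehicle, 245, 217, 123, 207 and 231 in LPS-vehicle and 119, 140.0, 133 and 87.9 in LPS-CPD-4645 mice. Every LPS-treated mouse was above every sham-vehicle mouse, and the LPS groups overlapped through LPS-vehicle mouse 3. *Ly6a* rose by 2.36 ± 0.19, edgeR adjusted p = 6.9e-08 (log2 fold change ± SE) after LPS and differed by -0.77 ± 0.17, edgeR adjusted p = 0.0028 with CPD-4645. Its level stayed above sham-vehicle in LPS-CPD-4645 mice, by 1.59 ± 0.19, edgeR adjusted p = 4.3e-06. *Ly6c1*, a related surface protein, stood at 93.9, 86.4, 79.8 and 46.9 CPM in sham-vehicle, 151, 179, 82.7, 235 and 213 in LPS-vehicle and 125, 136, 134 and 99.5 in LPS-CPD-4645 mice. It rose after LPS (1.17 ± 0.23, edgeR adjusted p = 0.0014), though LPS-vehicle mouse 3 lay within the range of sham-vehicle mice. The difference with CPD-4645, -0.48 ± 0.23, edgeR adjusted p = 0.11, passed without LPS-vehicle mouse 3 (adjusted p = 0.0094). *Ly6a* and *Ly6c1* belong to a cluster of related genes on the same chromosome. Reads shared between related genes could make their counts uncertain, which was not tested.

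Junction genes rose as well. *Cdh5* (VE-cadherin, ENSMUSG00000031871, chr8:104101625-104144511, plus strand), the adherens junction protein of endothelium, stood at 32.1, 26.7, 26.9 and 21.2 CPM in sham-vehicle, 70.9, 78.4, 37.8, 51.2 and 53.8 in LPS-vehicle and 59.8, 58.8, 59.1 and 55.5 in LPS-CPD-4645 mice. The LPS-vehicle mice all lay above the sham-vehicle mice, and the 4 LPS-CPD-4645 mice lay within the range of the LPS-vehicle mice. The rise after LPS was 1.14 ± 0.16, edgeR adjusted p = 5.8e-05, the difference with CPD-4645 was -0.02 ± 0.16, edgeR adjusted p = 0.95 with a 95% interval of -0.35 to 0.31, and LPS-CPD-4645 mice were above sham-vehicle mice by 1.12 ± 0.17, edgeR adjusted p = 5.3e-05. *Esam*, a tight junction adhesion molecule of endothelium and platelets, stood at 33.4, 38.3, 32.3 and 22.3 CPM in sham-vehicle, 71.3, 81.2, 66.9, 66.3 and 67.1 in LPS-vehicle and 56.1, 48.6, 45.96 and 54.5 in LPS-CPD-4645 mice. None of its 3 groups overlapped another, with LPS-vehicle highest and sham-vehicle lowest. *Esam* rose by 1.16 ± 0.12, edgeR adjusted p = 2.5e-06 after LPS and fell by 0.46 ± 0.12, edgeR adjusted p = 0.008 with CPD-4645.

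*Pecam1* (CD31, ENSMUSG00000020717, chr11:106654217-106750628, minus strand), an adhesion molecule of endothelial junctions that leukocytes and platelets also carry, was the endothelial marker of the study. It stood at 36.6, 26.9, 31.2 and 22.7 CPM in sham-vehicle, 45.1, 60.9, 29.6, 56.98 and 59.8 in LPS-vehicle and 33.9, 34.4, 23.8 and 23.98 in LPS-CPD-4645 mice. Of the LPS-vehicle mice, mouse 3 lay among the sham-vehicle mice and the other 4 above them. *Pecam1* rose after LPS (0.79 ± 0.19, edgeR adjusted p = 0.0055) and fell with CPD-4645 (-0.82 ± 0.19, edgeR adjusted p = 0.0034), and LPS-CPD-4645 and sham-vehicle mice differed by -0.02 ± 0.20, edgeR adjusted p = 0.94. *Pecam1* and *Cdh5* thus had different patterns: the ratio of *Cdh5* to *Pecam1* counts within a mouse was 0.862 to 0.991 in sham-vehicle, 0.899 to 1.57 in LPS-vehicle and 1.71 to 2.48 in LPS-CPD-4645 mice. The LPS-CPD-4645 mice were above all others in this ratio, which does not depend on the scaling of the libraries.

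*Nos3*, the endothelial nitric oxide synthase, stood at 14.3, 12.1, 11.03 and 9.23 CPM in sham-vehicle, 29.6, 24.7, 15, 30.5 and 28.9 in LPS-vehicle and 16.8, 16.8, 23.8 and 11.9 in LPS-CPD-4645 mice. The LPS-vehicle mice were above all sham-vehicle mice, while LPS-CPD-4645 mouse 4 lay among the latter. *Nos3* rose after LPS (1.15 ± 0.21, edgeR adjusted p = 0.00058) and fell with CPD-4645 (-0.58 ± 0.20, edgeR adjusted p = 0.038). The latter call was lost without any of LPS-vehicle mouse 1, 4 or 5 or LPS-CPD-4645 mouse 1, 2 or 4, with adjusted p of up to 0.14. Reads of *Nos3* can be shared with *Atg9b*, which overlaps its exons on the other strand.

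Of the other pan-endothelial genes, *Robo4*, a guidance receptor that stabilizes vessels, averaged 10.7 ± 1.199, 21.1 ± 4.55 and 17.98 ± 5.74 CPM in sham-vehicle, LPS-vehicle and LPS-CPD-4645 mice (mean ± SD, n = 4, 5 and 4) and rose after LPS (0.99 ± 0.20, edgeR adjusted p = 0.0014). *Cd34*, a sialomucin of endothelium and blood progenitors, averaged 82.4 ± 13.8, 111 ± 9.03 and 69.1 ± 7.55 CPM in the same order. It rose after LPS (0.43 ± 0.11, edgeR adjusted p = 0.0086) and fell with CPD-4645 (-0.69 ± 0.11, edgeR adjusted p = 0.00019), with no overlap between the groups either time. *Eng* (endoglin), a co-receptor for TGF-beta family ligands, averaged 49.2 ± 13.2, 74.1 ± 26.96 and 47.3 ± 13.04 CPM. Its fall with CPD-4645 (-0.67 ± 0.25, edgeR adjusted p = 0.047) was near the threshold and was lost in 9 of the 13 fits that left out 1 mouse, with adjusted p of up to 0.16 without LPS-CPD-4645 mouse 4. *Emcn*, *Egfl7*, *Mmrn2* and *Ramp2*, a sialomucin, a pair of secreted or matrix proteins of vessels and an adrenomedullin receptor subunit, passed in none of the comparisons. Their log2 fold changes ran from 0.03 to 0.42 after LPS and from -0.56 to -0.01 with CPD-4645, and *Mmrn2* had an edgeR adjusted p of 0.037 in the latter without LPS-vehicle mouse 3.

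Summed over the 13 pan-endothelial genes, the level was 340 to 518 CPM in sham-vehicle, 615 to 1044 CPM in LPS-vehicle and 526 to 687 CPM in LPS-CPD-4645 mice. Markers of blood cells moved in different directions. Neutrophil markers summed to 1.23 to 5.59, 65.7 to 279 and 7.30 to 27.5 CPM in the 3 groups. Of 7 neutrophil markers tested, 7 rose after LPS and 7 fell with CPD-4645. Monocyte and macrophage markers summed to 10.3 to 14.7, 25.6 to 78.3 and 10.4 to 15.9 CPM, with 4 of 5 tested higher after LPS and 2 of 5 lower with CPD-4645. The markers *Ly6g* and *Ccr2* were near 0, with group means of at most 0.16 and 0.27 CPM. Erythrocyte markers went the other way, with sums of 468 to 957, 239 to 460 and 325 to 705 CPM, 4 of 4 tested lower after LPS and 0 of 4 passing with CPD-4645. Platelet markers summed to 12.4 to 17.7, 11.7 to 17.0 and 14.9 to 21.5 CPM (0 of 3 passing after LPS, 1 higher and 1 lower with CPD-4645), and lymphocyte markers to 3.47 to 4.99, 2.96 to 4.66 and 2.37 to 4.97 CPM, with 0 of 1 tested passing. Since the brains were not perfused and leukocytes express *Pecam1*, *Cd34*, *Ly6a*, *Eng* and *Fli1*, these values stand beside the pan-endothelial result. Their part in it was not tested. Neuron markers summed to 8559 to 9969, 7110 to 7979 and 7616 to 9914 CPM. Of 7 neuron markers, 7 were below 0 after LPS, 3 of them passing, and 7 above 0 with CPD-4645, 2 of them passing, where 19.9% and 30.5% of all genes passed. Astrocyte markers summed to 1649 to 2131, 2189 to 2832 and 2025 to 2607 CPM, and pericyte and smooth muscle markers to 273 to 401, 201 to 331 and 228 to 298 CPM. After LPS, 3 of 8 astrocyte markers were higher, and 1 of 10 pericyte and smooth muscle markers was higher and 4 lower, and with CPD-4645 0 of 8 and 2 of 10 (both lower) passed. Microglia markers summed to 217 to 305, 250.3 to 456 and 189.7 to 255 CPM, with 1 of 7 higher and 2 lower after LPS and 4 lower with CPD-4645. Choroid plexus markers summed to 336 to 712, 166 to 372 and 239 to 779 CPM, with 2 of 5 lower after LPS and 1 higher with CPD-4645. Fibroblast markers summed to 106 to 117, 109.5 to 135 and 97.03 to 145 CPM and lymphatic markers to 41.4 to 47.2, 52.3 to 65.9 and 49.5 to 64.9 CPM, with 1 of 5 and 2 of 3 higher and 2 and 0 lower after LPS, and 0 of 5 and 1 of 3 (lower) passing with CPD-4645. The part of these shifts was not tested either.

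**Figure D3:**
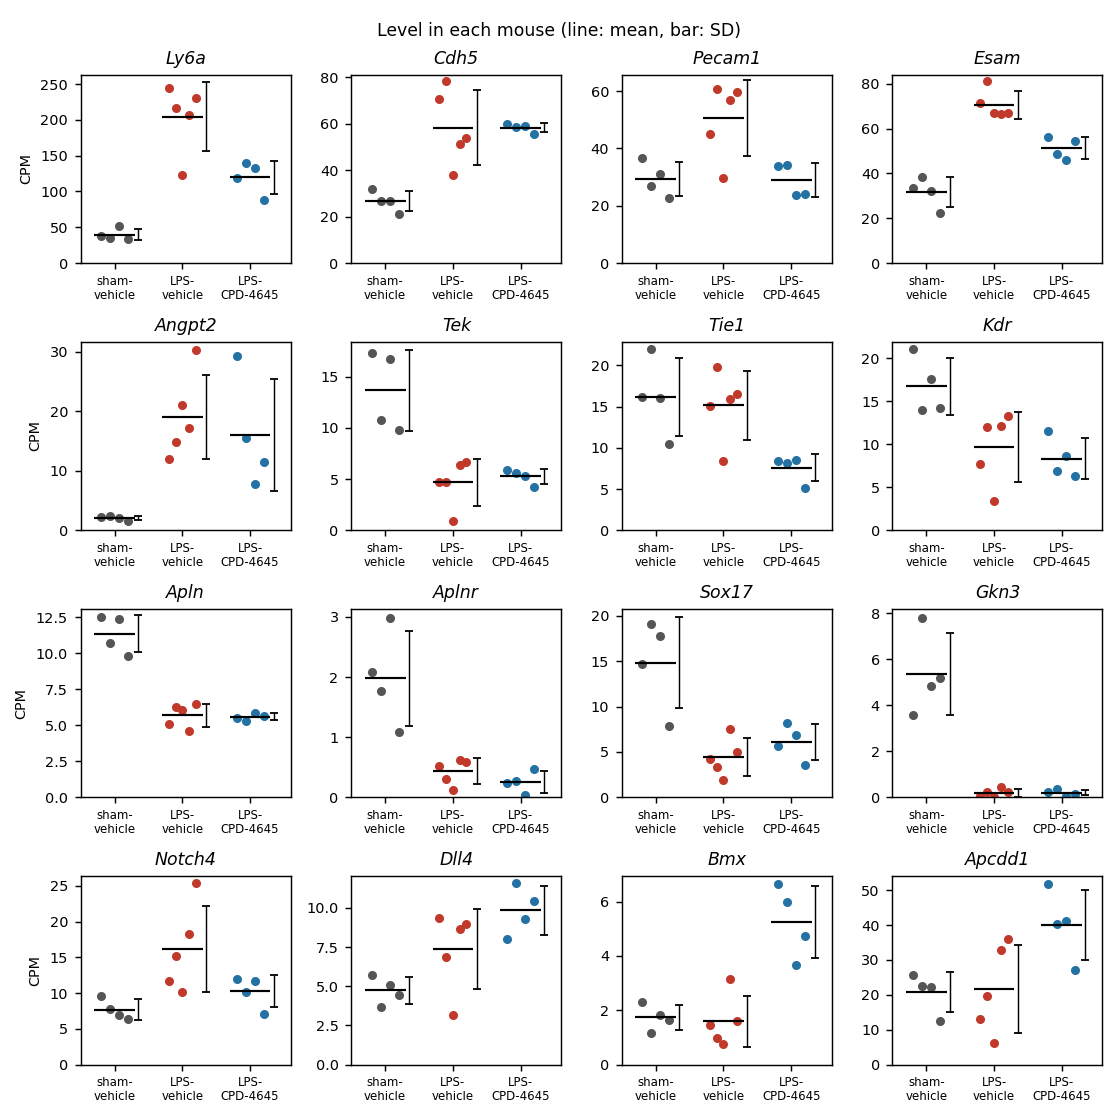
CPM of 16 of the 42 genes in each mouse (points), with the mean of each group (line) and its SD (bar), and a linear axis from 0. *Esam* separates all 3 groups, *Angpt2*, *Tek*, *Apln*, *Aplnr* and *Gkn3* separate both LPS groups from sham-vehicle, and *Bmx* separates LPS-CPD-4645 from the other groups.

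A second scaling was used to ask how the genes moved relative to other endothelial transcripts. Libraries were scaled to the summed counts of 15 further pan-endothelial genes in place of TMM, which moved the median log2 fold change of all genes to -0.41 after LPS, 0.35 with CPD-4645 and -0.04 between LPS-CPD-4645 and sham-vehicle mice. On this scale 8 of the 42 genes were higher and 13 lower after LPS, as against 11 and 8 under TMM, and 10 of the 13 pan-endothelial genes stayed above 0, 6 of them passing, without *Pecam1* and *Cd34*. With CPD-4645, 5 were higher (*Sox17*, *Lef1*, *Apcdd1*, *Dll4* and *Bmx*) and 1 lower (*Tie1*), as against 1 and 10, and 8 of the 13 pan-endothelial genes were below 0 with 0 passing. *Bmx* and *Tie1* passed with CPD-4645 on both scales. Between LPS-CPD-4645 and sham-vehicle mice, 9 were higher and 11 lower. The 15 reference genes were not fixed points themselves: after LPS 5 rose, among them *Rasip1* (2.07 ± 0.19), *Ecscr* (1.99 ± 0.32) and *Cyyr1* (2.21 ± 0.38), and 2 fell, among them *Ptprb* (-1.50 ± 0.28). With CPD-4645, 1 rose (*Clec14a*, 1.40 ± 0.23) and 5 fell.

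**Figure D4:**
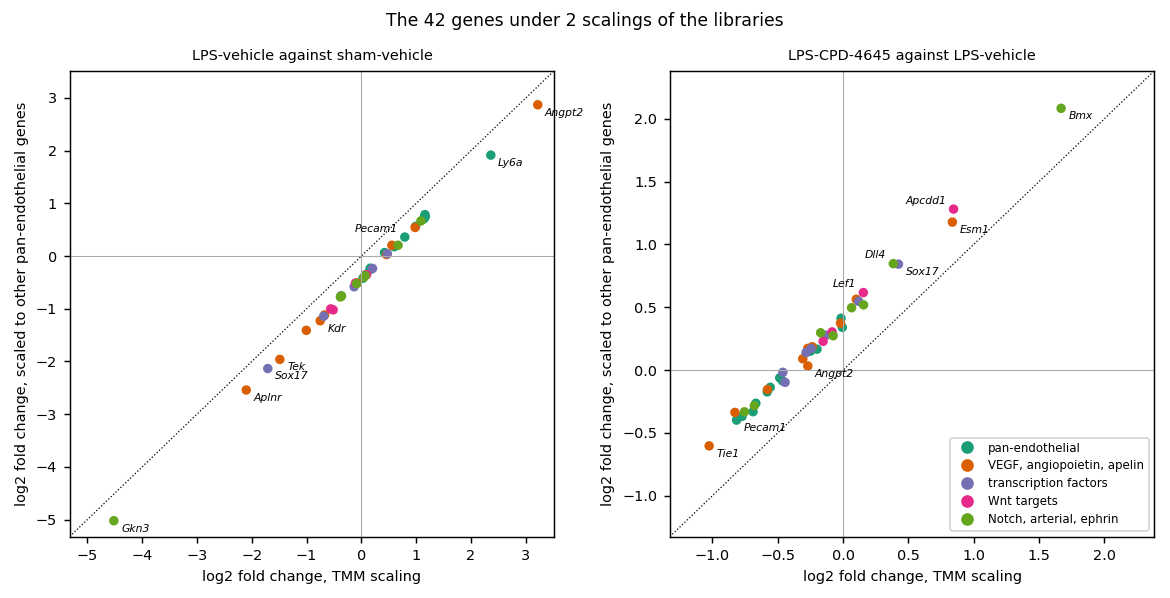
Log2 fold change of each of the 42 genes under TMM scaling (horizontal axis) and under scaling to the summed counts of 15 other pan-endothelial genes (vertical axis), for LPS-vehicle against sham-vehicle (left) and LPS-CPD-4645 against LPS-vehicle (right), coloured by role. Points shift off the dotted line of equality, below it on the left and above it on the right, so that most genes that were below 0 with CPD-4645 lie near or above 0 on the vertical axis.

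In the angiopoietin system a ligand rose and its receptor fell after LPS. *Angpt2* (ENSMUSG00000031465, chr8:18690263-18741562, minus strand, overlapping *Mcph1* on the other strand outside its exons) encodes angiopoietin 2, and stood at 2.17, 2.33, 2.03 and 1.58 CPM in sham-vehicle, 12.02, 14.9, 21.05, 17.2 and 30.3 in LPS-vehicle and 29.3, 15.4, 7.79 and 11.5 in LPS-CPD-4645 mice. The lowest LPS-treated mouse was above the highest sham-vehicle mouse, and the LPS groups overlapped. *Angpt2* rose by 3.22 ± 0.35, edgeR adjusted p = 3.3e-06 after LPS, and LPS-CPD-4645 mice stayed 2.95 ± 0.36, edgeR adjusted p = 6.1e-06 above sham-vehicle mice. The difference between the LPS groups was -0.27 ± 0.30, edgeR adjusted p = 0.53, with a 95% interval of -0.91 to 0.37. The receptor *Tek* (Tie2, ENSMUSG00000006386, chr4:94739289-94874976, plus strand), whose upstream sequence is shown above, stood at 17.3, 10.8, 16.8 and 9.78 CPM in sham-vehicle, 4.70, 4.72, 0.882, 6.41 and 6.65 in LPS-vehicle and 5.93, 5.60, 5.31 and 4.20 in LPS-CPD-4645 mice. All 9 LPS-treated mice were below all 4 sham-vehicle mice, and LPS-vehicle mouse 3 was far below the rest with 7 counts. *Tek* fell by 1.49 ± 0.31, edgeR adjusted p = 0.0019 after LPS and was lower by -1.39 ± 0.33, edgeR adjusted p = 0.0029 in LPS-CPD-4645 than in sham-vehicle mice. The LPS groups differed by 0.10 ± 0.32, edgeR adjusted p = 0.83, with a 95% interval of -0.56 to 0.76.

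The co-receptor *Tie1* (ENSMUSG00000033191, chr4:118471191-118490061, minus strand), which forms complexes with Tie2, had another pattern. It stood at 16.2, 22.04, 16.01 and 10.5 CPM in sham-vehicle, 15.1, 19.8, 8.44, 15.96 and 16.5 in LPS-vehicle and 8.46, 8.11, 8.58 and 5.14 in LPS-CPD-4645 mice. The LPS-vehicle mice overlapped the sham-vehicle mice (-0.08 ± 0.22, edgeR adjusted p = 0.86), whereas the LPS-CPD-4645 mice lay below all others except for LPS-vehicle mouse 3, which was among them. *Tie1* fell with CPD-4645 (-1.02 ± 0.23, edgeR adjusted p = 0.003) and was below sham-vehicle mice by -1.10 ± 0.24, edgeR adjusted p = 0.0015. Ratios of counts within a mouse put this without any scaling. There were 0.121 to 0.216 *Angpt2* counts per *Tek* count in sham-vehicle, 2.55 to 23.9 in LPS-vehicle and 1.47 to 4.95 in LPS-CPD-4645 mice. The 23.9 was LPS-vehicle mouse 3, with 7 *Tek* counts, and the next highest of its group was 4.55. *Tek* per *Tie1* was 0.491 to 1.07, 0.104 to 0.403 and 0.618 to 0.817, so the LPS-vehicle mice were below all others. The 0.104 was again LPS-vehicle mouse 3, and the next lowest of its group was 0.239.

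**Figure D5:**
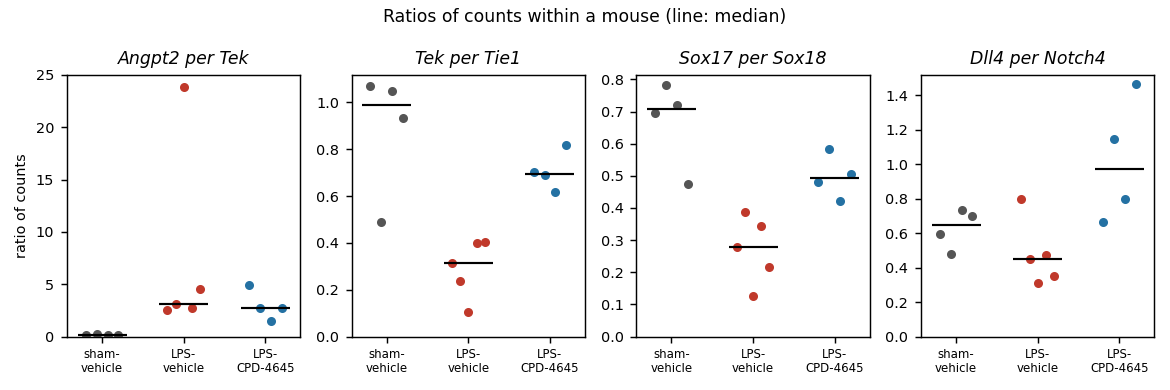
Ratio of the counts of a pair of genes within each mouse (points) and the median of each group (line), on linear axes from 0. *Angpt2* per *Tek* is higher in all 9 LPS-treated mice than in any sham-vehicle mouse, and *Tek* per *Tie1* and *Sox17* per *Sox18* are lowest in the 5 LPS-vehicle mice.

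VEGF genes fell or did not pass, apart from *Flt4*. *Vegfa* (ENSMUSG00000023951, chr17:46016993-46032369, minus strand), the main VEGF ligand, which astrocytes and other glia make more than endothelium does, stood at 47.3, 52.5, 46.8 and 54.1 CPM in sham-vehicle, 42.9, 30.4, 23.8, 35.5 and 23.8 in LPS-vehicle and 31.8, 22.7, 21.8 and 25.9 in LPS-CPD-4645 mice. The LPS-treated mice were all below the sham-vehicle mice. *Vegfa* fell after LPS (-0.67 ± 0.15, edgeR adjusted p = 0.0041) and was also lower in LPS-CPD-4645 than in sham-vehicle mice (-0.98 ± 0.16, edgeR adjusted p = 0.00015), and the LPS groups differed by -0.31 ± 0.16, edgeR adjusted p = 0.15. *Kdr* (VEGFR2), the signalling receptor, stood at 21.05, 14.04, 17.6 and 14.3 CPM in sham-vehicle, 7.69, 11.96, 3.40, 12.1 and 13.3 in LPS-vehicle and 11.5, 6.89, 8.62 and 6.32 in LPS-CPD-4645 mice. All LPS-treated mice were below the sham-vehicle mice here too. The difference after LPS, -0.75 ± 0.27, edgeR adjusted p = 0.054, just missed the threshold and passed by limma-voom (adjusted p = 0.031) and DESeq2 (0.018), and ranged from 0.034 to 0.17 in edgeR with each mouse left out. *Kdr* was lower in LPS-CPD-4645 than in sham-vehicle mice (-1.02 ± 0.29, edgeR adjusted p = 0.0091). *Flt1* (VEGFR1), a decoy that binds VEGF, averaged 52.3 ± 11.6, 71.5 ± 21.4 and 48.5 ± 7.67 CPM. It fell with CPD-4645 (-0.58 ± 0.20, edgeR adjusted p = 0.035), a call lost in 6 of the 13 fits that left out 1 mouse, with adjusted p of up to 0.10. *Kdr* per *Flt1* count was 0.282 to 0.378 in sham-vehicle, 0.0941 to 0.168 in LPS-vehicle and 0.142 to 0.205 in LPS-CPD-4645 mice, lower in every LPS-treated mouse. *Flt4* (VEGFR3), the receptor of VEGF-C, averaged 3.93 ± 1.26, 7.62 ± 2.597 and 6.66 ± 2.24 CPM and rose after LPS (0.98 ± 0.29, edgeR adjusted p = 0.024), a call lost without sham-vehicle mouse 1 or 4 or LPS-vehicle mouse 2 or 4 (adjusted p of up to 0.085).

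Apelin and its receptor fell together. *Apln* (ENSMUSG00000037010, chrX:48025146-48034853, minus strand), a peptide ligand of sprouting endothelium, stood at 12.5, 10.7, 12.4 and 9.83 CPM in sham-vehicle, 5.08, 6.24, 6.05, 4.57 and 6.47 in LPS-vehicle and 5.53, 5.32, 5.87 and 5.65 in LPS-CPD-4645 mice. The LPS-treated mice were tightly grouped and below all sham-vehicle mice. *Apln* fell after LPS (-1.005 ± 0.15, edgeR adjusted p = 0.00011), and the LPS groups differed by -0.02 ± 0.16, edgeR adjusted p = 0.94, with a 95% interval of -0.35 to 0.31. *Aplnr*, its G protein-coupled receptor, stood at 2.08, 1.77, 2.99 and 1.09 CPM in sham-vehicle, 0.515, 0.305, 0.126, 0.63 and 0.596 in LPS-vehicle and 0.237, 0.28, 0.0376 and 0.471 in LPS-CPD-4645 mice. It fell after LPS (-2.10 ± 0.51, edgeR adjusted p = 0.0067) and was lower than in sham-vehicle with CPD-4645 (-2.93 ± 0.59, edgeR adjusted p = 0.00079). Its counts were low, 22 to 75 in sham-vehicle and 1 to 23 in LPS-treated mice, so the size of the fall was imprecise. *Esm1* (endocan), a proteoglycan of tip cells, stood at 0.456, 0.161, 0.597 and 0.543 CPM in sham-vehicle, 0.446, 0.287, 1.51, 0.657 and 0.656 in LPS-vehicle and 1.11, 0.944, 1.05 and 1.53 in LPS-CPD-4645 mice. LPS-CPD-4645 mice were above the sham-vehicle mice (1.39 ± 0.54, edgeR adjusted p = 0.047). This rested on 4 to 39 counts and was lost in 10 of the 13 fits that left out 1 mouse, with adjusted p of up to 0.125.

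Of the 7 transcription factors, *Sox17* was the 1 that passed after LPS under TMM, where 19.9% of all genes passed. *Sox17* (ENSMUSG00000025902, chr1:4490931-4497354, minus strand), a SOXF factor of arterial endothelium, stood at 14.7, 19.1, 17.7 and 7.85 CPM in sham-vehicle, 4.22, 3.39, 1.89, 7.53 and 5.01 in LPS-vehicle and 5.69, 8.18, 6.93 and 3.57 in LPS-CPD-4645 mice. The LPS-vehicle mice were below all sham-vehicle mice, and LPS-CPD-4645 mouse 2 reached above the lowest of these, sham-vehicle mouse 4. Reads of *Sox17* can be shared with *Gm37587*, which overlaps its exons on the other strand. *Sox17* fell after LPS (-1.71 ± 0.31, edgeR adjusted p = 0.00066) and was lower than in sham-vehicle with CPD-4645 (-1.28 ± 0.33, edgeR adjusted p = 0.005). Its sequence relative *Sox18* averaged 21.7 ± 3.75, 16.8 ± 5.88 and 12.3 ± 3.96 CPM and was lower in LPS-CPD-4645 than in sham-vehicle mice (-0.82 ± 0.27, edgeR adjusted p = 0.022), a call lost without sham-vehicle mouse 2 or 3 or LPS-CPD-4645 mouse 4 (adjusted p of up to 0.077). *Sox17* per *Sox18* count was 0.473 to 0.783 in sham-vehicle, 0.127 to 0.389 in LPS-vehicle and 0.423 to 0.585 in LPS-CPD-4645 mice. The ratio was lower in every LPS-vehicle mouse than in the other 8 mice. *Sox7*, the third SOXF factor, and the ETS factors *Erg* and *Fli1* passed in none of the comparisons, and neither did the forkhead factors *Foxf2* and *Foxq1* of brain endothelium. Their log2 fold changes after LPS ran from -0.69 for *Foxq1*, whose edgeR adjusted p was 0.055, to 0.47 for *Sox7*. Scaled to the summed counts of other endothelial genes, *Foxq1* and *Sox18* passed as lower after LPS too, and scaled to their geometric mean *Foxq1* did. The LPS-vehicle mice were all below the sham-vehicle mice for *Foxq1*.

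Under TMM, none of the 4 Wnt genes passed after LPS or with CPD-4645, where 19.9% and 30.5% of all genes passed. With so few genes this is not a result about the group. With either scaling to other endothelial genes, *Lef1* and *Nkd1* passed as lower after LPS and *Apcdd1* as higher with CPD-4645, and with the summed scaling *Lef1* was higher with CPD-4645. *Lef1*, the transcriptional effector, averaged 27.6 ± 3.40, 18.9 ± 6.03 and 21.5 ± 3.77 CPM, with -0.51 ± 0.20, edgeR adjusted p = 0.075 after LPS and no overlap between the groups. *Nkd1*, a feedback inhibitor, differed by -0.56 ± 0.20, edgeR adjusted p = 0.056 after LPS, also without overlap, and was lower in LPS-CPD-4645 than in sham-vehicle mice (-0.64 ± 0.21, edgeR adjusted p = 0.023), a call lost without sham-vehicle mouse 3 or LPS-CPD-4645 mouse 2, 3 or 4 (adjusted p of up to 0.09). *Axin2*, the general target, averaged 28.2 ± 3.07, 26.2 ± 1.24 and 23.5 ± 2.44 CPM, and its fold changes ran from -0.26 to -0.11 on the log2 scale. *Apcdd1*, an inhibitor expressed by barrier endothelium, averaged 20.7 ± 5.79, 21.7 ± 12.71 and 40.03 ± 10.1 CPM. It was higher in LPS-CPD-4645 than in sham-vehicle mice (0.94 ± 0.35, edgeR adjusted p = 0.042), without overlap, and differed by 0.85 ± 0.33, edgeR adjusted p = 0.06 between the LPS groups. The first call was lost in 6 of the 13 fits that left out 1 mouse (adjusted p of up to 0.12), and the second difference passed by limma-voom (adjusted p = 0.042) and without LPS-vehicle mouse 4 or 5 or LPS-CPD-4645 mouse 4.

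Arterial and Notch genes held the largest fall after LPS and, under TMM in edgeR, the single rise with CPD-4645. *Gkn3* (ENSMUSG00000030048, chr6:87383256-87388935, minus strand), a gastrokine that marks arterial endothelium of the mouse brain, stood at 3.59, 7.803, 4.86 and 5.18 CPM in sham-vehicle, 0.0687, 0.215, 0, 0.465 and 0.238 in LPS-vehicle and 0.237, 0.35, 0.0753 and 0.157 in LPS-CPD-4645 mice. These are 105 to 194 counts in sham-vehicle mice, 0 to 17 in LPS-vehicle and 2 to 10 in LPS-CPD-4645 mice. No LPS-treated mouse came near the sham-vehicle range. *Gkn3* fell by 4.52 ± 0.47, edgeR adjusted p = 2e-06 after LPS and was lower by -4.69 ± 0.54, edgeR adjusted p = 3.3e-06 in LPS-CPD-4645 than in sham-vehicle mice. At these counts the size of the fall carries counting error, and a difference between the LPS groups was not detectable (-0.17 ± 0.58, edgeR adjusted p = 0.85).

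*Bmx* (ENSMUSG00000031377, chrX:164192842-164258193, minus strand), a cytoplasmic tyrosine kinase of arterial endothelium, stood at 2.31, 1.17, 1.83 and 1.63 CPM in sham-vehicle, 1.44, 0.969, 0.756, 3.15 and 1.61 in LPS-vehicle and 6.64, 5.98, 3.65 and 4.75 in LPS-CPD-4645 mice. The LPS-CPD-4645 mice were above all other mice, and the sham-vehicle and LPS-vehicle mice overlapped. *Bmx* rose with CPD-4645 (1.67 ± 0.34, edgeR adjusted p = 0.0014) and was higher than in sham-vehicle mice (1.58 ± 0.36, edgeR adjusted p = 0.0022), and LPS alone gave -0.09 ± 0.35, edgeR adjusted p = 0.9. It was the 1 gene of the 42 that rose with CPD-4645 under TMM in edgeR, against 14.1% of all genes.

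*Notch4* (ENSMUSG00000015468, chr17:34564268-34588503, plus strand), the endothelial Notch receptor, stood at 9.64, 7.76, 6.89 and 6.37 CPM in sham-vehicle, 11.7, 15.2, 10.2, 18.3 and 25.4 in LPS-vehicle and 12.02, 10.1, 11.7 and 7.14 in LPS-CPD-4645 mice. All LPS-vehicle values were above all sham-vehicle values, and LPS-CPD-4645 mice overlapped both groups. *Notch4* rose after LPS (1.09 ± 0.23, edgeR adjusted p = 0.0027) and fell with CPD-4645 (-0.68 ± 0.23, edgeR adjusted p = 0.033), where the call was lost without LPS-vehicle mouse 4 or 5 or LPS-CPD-4645 mouse 2 or 4 (adjusted p of up to 0.12). Scaled to the geometric mean of other endothelial genes, the rise of *Notch4* after LPS did not pass, and neither did the LPS differences of *Robo4*, *Hey1* and *Efnb2*. The difference of *Notch4* with CPD-4645 passed under neither scaling to other endothelial genes. *Dll4*, the endothelial Notch ligand, stood at 5.73, 3.70, 5.06 and 4.44 CPM in sham-vehicle, 9.37, 6.89, 3.15, 8.62 and 8.94 in LPS-vehicle and 7.99, 11.6, 9.30 and 10.4 in LPS-CPD-4645 mice. It was higher in LPS-CPD-4645 than in sham-vehicle mice (1.06 ± 0.25, edgeR adjusted p = 0.0028), without overlap. After LPS its difference, 0.67 ± 0.24, edgeR adjusted p = 0.055, just missed the threshold and passed without LPS-vehicle mouse 3 (adjusted p = 0.0032). *Dll4* per *Notch4* count was 0.477 to 0.734 in sham-vehicle, 0.309 to 0.798 in LPS-vehicle and 0.664 to 1.46 in LPS-CPD-4645 mice, with overlap between groups. Both *Dll4* and *Notch4* overlap annotated genes on the other strand.

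*Hey1*, a Notch target and transcriptional repressor, averaged 69.1 ± 4.27, 53.8 ± 2.75 and 59.9 ± 3.31 CPM and fell (-0.36 ± 0.07, edgeR adjusted p = 0.0019). *Nrarp*, a feedback inhibitor of Notch, averaged 28.9 ± 1.90, 30.1 ± 7.15 and 17.9 ± 6.15 CPM. It fell with CPD-4645 (-0.75 ± 0.19, edgeR adjusted p = 0.0066) and was below sham-vehicle mice in that group (-0.69 ± 0.20, edgeR adjusted p = 0.012). *Efnb2* (ephrin-B2), the arterial ephrin ligand that neurons and glia also express, averaged 68.7 ± 2.19, 52.8 ± 2.43 and 50.03 ± 2.68 CPM and fell after LPS (-0.38 ± 0.07, edgeR adjusted p = 0.00076), while *Ephb4*, its venous receptor, passed in none of the comparisons, with log2 fold changes from 0.05 to 0.12.

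Per transcript length, *Ly6c1* (45.8 ± 12.4 RPKM, mean ± SD, n = 4) and *Ly6a* (33.1 ± 6.84 RPKM) were the most abundant of the 42 genes in sham-vehicle mice, and these neighbours in the order overlapped within their SD. *Esm1* was the lowest, at 0.21 ± 0.0928 RPKM. In LPS-vehicle mice *Ly6a* came first, at 170 ± 39.6 RPKM. *Angpt2* was 39th of 42 in sham-vehicle mice at 0.55 ± 0.0875 RPKM, 17th in LPS-vehicle mice at 5.17 ± 1.92 RPKM and 15th in LPS-CPD-4645 mice at 4.34 ± 2.55 RPKM. *Gkn3* went the other way, from 14th at 6.26 ± 2.06 RPKM in sham-vehicle mice to 41st in both LPS groups. It was at 0.231 ± 0.21 RPKM in LPS-vehicle and 0.239 ± 0.137 RPKM in LPS-CPD-4645 mice.

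Genes of the same pathways outside the 42 were read from lists, beside the 19.9%, 30.5% and 38.8% of all genes that passed in the 3 comparisons. With CPD-4645 fewer passed in each list than among genes at large, 2 of 15, 4 of 22 and 3 of 16, so these are values of single genes and not a pathway result. Of 15 tested VEGF, angiopoietin and apelin pathway genes, 3 were higher and 5 lower after LPS. The clearest were *Adamts1*, a protease that binds VEGF (3.18 ± 0.24, edgeR adjusted p = 4.6e-08), *Adm*, the vasoactive peptide adrenomedullin (1.44 ± 0.21, edgeR adjusted p = 8e-05), the endothelial netrin receptor *Unc5b* (-1.07 ± 0.14, edgeR adjusted p = 2.5e-05), and the tip cell chemokine receptor *Cxcr4* (-0.87 ± 0.22, edgeR adjusted p = 0.0089). With CPD-4645, 0 were higher and 2 lower, *Cxcr4* (-0.83 ± 0.24, edgeR adjusted p = 0.013) and *Plcg1*, a phospholipase downstream of VEGFR2 (-0.28 ± 0.08, edgeR adjusted p = 0.014). Between LPS-CPD-4645 and sham-vehicle mice 3 were higher and 7 lower, with *Adamts1* (3.06 ± 0.24) and *Adm* (1.57 ± 0.22) still raised.

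Of 22 further Wnt/beta-catenin genes, 1 was higher and 8 lower after LPS. *Fzd4*, the receptor of norrin on brain endothelium, rose (0.84 ± 0.16, edgeR adjusted p = 0.0013), and *Notum*, a Wnt deacylase (-1.68 ± 0.37, edgeR adjusted p = 0.0035), the receptor *Fzd6* (-0.92 ± 0.21, edgeR adjusted p = 0.0042) and the effector *Tcf7l2* (-0.67 ± 0.16, edgeR adjusted p = 0.005) fell. With CPD-4645, 2 were higher and 2 lower. *Fzd4* rose further (0.98 ± 0.16, edgeR adjusted p = 0.00022), and *Ndp*, which encodes norrin, fell (-0.63 ± 0.17, edgeR adjusted p = 0.011). Against sham-vehicle mice 3 were higher and 8 lower in LPS-CPD-4645 mice, with *Fzd4* at 1.81 ± 0.17 and *Ndp* at -1.17 ± 0.18. Many of these genes are also expressed by astrocytes or neurons.

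Of 16 further Notch pathway genes, 4 were higher and 1 lower after LPS, where 19.9% of all genes passed, the lower one being *Hes5*, a Notch target of astrocytes and neural progenitors (-1.74 ± 0.20, edgeR adjusted p = 6.3e-06). *Lfng* (0.82 ± 0.18, edgeR adjusted p = 0.0027), *Notch1* (0.56 ± 0.14, edgeR adjusted p = 0.0084) and *Hes1* (0.51 ± 0.13, edgeR adjusted p = 0.011) rose. With CPD-4645, 3 were higher, of which the ligand *Jag2* had the largest change (0.57 ± 0.16, edgeR adjusted p = 0.013), and 0 lower. *Hes5* stayed lower in LPS-CPD-4645 than in sham-vehicle mice (-1.97 ± 0.22, edgeR adjusted p = 2.9e-06), with 5 of the 16 higher and 1 lower.

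Across the 42 genes, 12 of 19 calls after LPS held in all fits that left out 1 mouse and in all other settings in which the gene could be tested against no change, among them *Angpt2*, *Ly6a*, *Cdh5*, *Esam*, *Tek*, *Apln*, *Aplnr*, *Sox17*, *Gkn3* and *Vegfa*. With CPD-4645, 2 of 11 did, *Bmx* and *Tie1*, and 14 of 24 did between LPS-CPD-4645 and sham-vehicle mice, where the calls of *Ly6c1*, *Nos3* and *Hey1* were lost in 5, 6 and 8 of the fits that left out 1 mouse. *Gkn3*, *Aplnr* and *Esm1* were removed by the filter of a mean count of at least 50 and have no value there. No fold change that passed turned its sign under any setting that gave it a value.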

How the data were processed

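The authors aligned reads of stranded poly-A libraries to GRCm38 with STAR (2.5.2a per the labels) and deposited whole-number counts per gene, without normalization, for 13 mice. The strand column kept is not given in the sources used here, so genes overlapping on opposite strands may share reads. Besides *Nos3*, *Dll4* and *Sox17*, this holds for exons of *Eng*, *Cd34*, *Nrarp*, *Foxq1*, *Foxf2*, *Lef1*, *Axin2*, *Egfl7* and *Ephb4*. Groups came from the labels. Counts were analysed with edgeR 4.0.16 (R 4.3.3): filterByExpr (minimum count 10, minimum total 15), TMM (factors 0.908 to 1.08) and the quasi-likelihood test on all 13 mice in 1 fit (common dispersion 0.0334), with Benjamini-Hochberg adjustment over the 17285 genes. SE were derived from the same fit. CPM used TMM-scaled totals, and RPKM the merged exons of GENCODE M21 (GRCm38). Alternatives used limma 3.58.1, DESeq2 1.42.0, other scalings and filters, and each mouse left out. Tests were checked on simulated counts. Totals ranged 7.06-fold. The 42 genes, the lists and the tests were chosen with earlier results of these data known. Genes with the value in every mouse are those that passed with at least 2-fold change in any comparison, plus *Pecam1*, *Cdh5*, *Kdr*, *Tek* and *Vegfa*. From each list at most 4 genes per comparison were named, by smallest adjusted p. Upstream sequences are RefSeq's (GRCm38.p6). 1 marker gene is not reported here.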

Additional observations from a re-analysis of the deposited data

Results flagged for a closer look

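In 4 of the 126 combinations of a gene and a group, 1 mouse lay apart from the rest of its group by Dixon's criterion, where chance gives about 6.3 (1 in 20). *Egfl7* in sham-vehicle mouse 4 was the lowest of its group at 46.4 CPM, against 57.6 to 59.3 CPM in the others. *Tie1* in LPS-CPD-4645 mouse 4 was the lowest at 5.14 CPM, against 8.11 to 8.58 CPM, and the fall of *Tie1* with CPD-4645 passed without this mouse too. *Axin2* in sham-vehicle mouse 3 was the highest at 32.8 CPM, against 26.4 to 27.3 CPM. *Efnb2* in LPS-CPD-4645 mouse 4 was the lowest at 46.0 CPM, against 51.0 to 51.8 CPM. Sham-vehicle mouse 4 and LPS-CPD-4645 mouse 4 were also the mice with the lowest summed pan-endothelial level of their groups, at 340 and 526 CPM, and the highest summed neuron markers.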

How the results depend on the processing

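Counts of the 42 genes that passed are given for LPS-vehicle against sham-vehicle, LPS-CPD-4645 against LPS-vehicle and LPS-CPD-4645 against sham-vehicle in that order. With each of the 13 mice left out in turn, genes called ranged over 18 to 22, 7 to 13 and 17 to 26, higher over 10 to 14, 1 to 2 and 7 to 12, lower over 8 to 10, 6 to 12 and 10 to 14, those with a 2-fold change over 11 to 14, 1 to 3 and 9 to 13, and those without overlap over 20 to 25, 3 to 11 and 18 to 23. Scaled to the summed counts of 15 other pan-endothelial genes, 13 were lower after LPS, and with CPD-4645 6 were called (5 higher, 1 lower) and 6 did not overlap. Scaled to their geometric mean, chosen after seeing the data, 6 were higher after LPS, 3 were called with CPD-4645 (2 higher, 1 lower) with 7 not overlapping, and 6 were higher in LPS-CPD-4645 than in sham-vehicle mice, with all-gene medians of -0.31, 0.11 and -0.19. Of all 17285 genes, 1772, 1098 and 2856 passed on that scale. The genes higher with CPD-4645 were 3 by limma-voom, 2 without a filter on low counts and 2 with the replicate block. Tested against the 2-fold change itself (glmTreat), 3, 0 and 4 passed, where 12, 2 and 13 had passed at 0.05 with a 2-fold estimate. Without the 2 shallowest libraries 15, and without sham-vehicle 4 and LPS-vehicle 3 (chosen after seeing the data) 12, did not overlap between the LPS groups, instead of 3. The share of all genes is not given with mice left out. The cause of these shifts was not tested, except that left-out mice and the stricter test give fewer samples or a higher bar. DESeq2, its size factors, a mean count of at least 50 and fits of only the groups compared kept every count within 1.5 times.

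Replicate numbers are shared by the groups, but same-numbered mice did not deviate together (correlations -0.03 to 0.11), so they were not treated as pairs. Such correlations cannot exclude that same-numbered mice were handled together. With the replicate number as a block, 22, 9 and 24 genes were called, instead of 19, 11 and 24. Depth limits *Gkn3*, *Aplnr* and *Esm1*, some of whose libraries held under 5 counts. Group sizes of 4 and 5 and the mixed tissue limit the rest.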

Other observations

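Endothelial zonation and further transcription factors, read from lists chosen with results of these data known, moved in both directions, where 19.9%, 30.5% and 38.8% of all genes passed in the 3 comparisons. Of 10 other arterial endothelial genes, 4 were higher and 2 lower after LPS, where *Alpl*, an alkaline phosphatase of arterioles and capillaries, fell (-1.91 ± 0.19, edgeR adjusted p = 8.3e-07) and the matrix protein *Mgp* rose (1.13 ± 0.15, edgeR adjusted p = 2.4e-05). With CPD-4645, 0 were higher and 3 lower, among them the BMP receptor *Acvrl1* (-0.95 ± 0.22, edgeR adjusted p = 0.0033), and 2 were higher and 2 lower in LPS-CPD-4645 than in sham-vehicle mice. Of 9 venous and capillary genes, 3 were higher and 2 lower after LPS. The venous gene *Lrg1* had the largest rise of that list (3.40 ± 0.26, edgeR adjusted p = 6.1e-08), the chemokine receptor *Ackr1* of venules rose (1.36 ± 0.19, edgeR adjusted p = 5e-05), and the amino acid transporter *Slc38a5* fell (-1.81 ± 0.37, edgeR adjusted p = 0.0018). *Slc38a5* was lower again with CPD-4645 (-2.74 ± 0.47, edgeR adjusted p = 0.00039), while *Plvap*, a diaphragm protein of leaky vessels, rose (1.13 ± 0.21, edgeR adjusted p = 0.00084), with 2 of 9 higher and 3 lower. Between LPS-CPD-4645 and sham-vehicle mice 3 were higher and 2 lower.

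Of 17 other endothelial transcription factors tested, 8 were higher and 1 lower after LPS. The flow-responsive factor *Klf2* (1.28 ± 0.15, edgeR adjusted p = 7.4e-06), the repressor *Bcl6b* (2.04 ± 0.24, edgeR adjusted p = 8e-06), *Ets1* (1.07 ± 0.22, edgeR adjusted p = 0.0022) and *Gata2* (0.85 ± 0.19, edgeR adjusted p = 0.0033) rose. With CPD-4645, 3 were higher and 3 lower, *Ets1* falling (-1.08 ± 0.23, edgeR adjusted p = 0.0016) and *Foxo1* rising (0.37 ± 0.08, edgeR adjusted p = 0.0024), and 8 were higher and 2 lower than in sham-vehicle mice. *Ets1* is also expressed by lymphocytes and *Klf2* by leukocytes, and the part of blood cells was not tested.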
